A study of Mus musculus with 6 samples.

Results

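Collagen modification and crosslinking were followed through 10 genes that were taken by name for their known function: the prolyl 4-hydroxylase subunits P4ha1 and P4ha2, the lysyl hydroxylases Plod1 and Plod2, the collagen chaperone Serpinh1, the procollagen proteinase Bmp1 and its enhancer Pcolce, and the lysyl oxidases Lox, Loxl1 and Loxl2. All 10 were among the 18810 genes of the table, and none had a library at the fill-in value of low genes. RNA was sequenced from dissected atrioventricular canal regions with mitral, tricuspid and aortic valves, taken at embryonic day 15.5 from C57BL/6 embryos. The groups were 3 Scx-/- embryos, homozygous for a null allele of Scleraxis (Scx), and 3 Scx+/+ wild-type littermates, with 1 library for each embryo. Cells were not sorted, so fewer cells of a type and less RNA per cell cannot be told apart. Sex and litter of the embryos were not given in the labels, and no agent was applied to either group.

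Fibrillar collagen is made as a procollagen whose chains are modified in the endoplasmic reticulum before they fold. Prolyl 4-hydroxylases stabilize the triple helix, lysyl hydroxylases prepare lysines for glycosylation and crosslinking, and Serpinh1 (HSP47) holds the folded helix until it leaves for the Golgi. Outside the cell Bmp1 removes the C-propeptide, helped by Pcolce, and lysyl oxidases oxidize lysines so that collagen and elastin fibres become crosslinked. In heart valves these steps give the leaflets their strength as the endocardial cushions become layered connective tissue. Scx is a basic helix-loop-helix factor, a class of proteins that binds the DNA motif CANNTG, or E-box, and it is best known for driving matrix genes in tendon and valves.

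The RefSeq promoter table (build GRCm38.p6) held 5 of the 10 genes, namely P4ha1, P4ha2, Plod1, Serpinh1 and Pcolce. The 250 bases before the start site are shown for Pcolce, which had the most E-boxes, and for the P4ha1 and P4ha2 pair, because both genes had their highest levels in the same pair of libraries. Capitals mark CANNTG in Pcolce. In P4ha1 and P4ha2 they mark ACGTG and GCGTG on either strand, the cores bound by hypoxia-inducible factors.
Pcolce, chr5:137611405-137611654, minus strand: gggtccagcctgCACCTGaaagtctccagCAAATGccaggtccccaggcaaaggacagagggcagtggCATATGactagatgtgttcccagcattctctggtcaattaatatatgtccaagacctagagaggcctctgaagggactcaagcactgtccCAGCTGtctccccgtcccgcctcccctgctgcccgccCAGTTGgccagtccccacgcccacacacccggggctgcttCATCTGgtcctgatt
P4ha1, chr10:59323046-59323295, plus strand: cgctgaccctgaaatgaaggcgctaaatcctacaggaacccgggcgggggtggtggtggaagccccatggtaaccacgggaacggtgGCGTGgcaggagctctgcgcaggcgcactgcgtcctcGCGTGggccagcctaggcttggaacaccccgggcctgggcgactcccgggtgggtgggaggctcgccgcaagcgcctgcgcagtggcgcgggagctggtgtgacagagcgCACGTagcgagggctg
P4ha2, chr11:54100674-54100923, plus strand: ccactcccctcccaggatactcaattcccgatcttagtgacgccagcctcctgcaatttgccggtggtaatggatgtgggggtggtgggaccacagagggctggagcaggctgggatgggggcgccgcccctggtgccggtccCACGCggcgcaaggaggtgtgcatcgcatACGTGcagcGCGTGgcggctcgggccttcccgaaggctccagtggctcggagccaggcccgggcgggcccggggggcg
CANNTG was found 6 times in the Pcolce window, 2 times in that of Plod1 and 0 times in those of P4ha1, P4ha2 and Serpinh1, against at least 1 match in 66.2% of all 32851 windows of this length. ACGTG was found 1 time each in P4ha1, P4ha2 and Serpinh1 and 0 times in Plod1 and Pcolce, and 16.6% of all windows held it. GCGTG was found 2 times each in P4ha1 and P4ha2, 1 time each in Plod1 and Pcolce and 0 times in Serpinh1, with 28.2% of all windows holding it. ACGTG and GCGTG matches do not overlap E-boxes in these windows. These matches describe letters in the window and do not show binding.

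By recovered reads the libraries held 46429988 to 68571049 reads, and the 10 genes were covered by 215 reads (Loxl1 in Scx-/- replicate 1) to 22358 reads (Serpinh1 in Scx-/- replicate 2). Scx itself had levels of 33.6, 18.6 and 82.9 RPKM in the Scx-/- libraries and of 29.5, 58.3 and 26.0 RPKM in the wild type, in the order of replicates 1 to 3, which is kept throughout. RPKM scales the reads of a gene by its exon length and by the depth of the library, and here it covers the whole Scx gene, not the deleted part alone. The Scx values overlapped and do not check the genotype labels. The study measured the deleted exon separately, which was not analysed here, so every library is named by its label and every direction below rests on those labels. Markers of valve mesenchyme and of cardiomyocytes were above the fill-in value in all libraries. The summed level of 8 cardiomyocyte genes was 16197 to 23826 RPKM in Scx-/- and 14439 to 26299 RPKM in Scx+/+, far above the 478 to 674 and 374 to 493 RPKM of 8 genes of the valve mesenchyme. Of the marker genes, Lum (1 of 8, valve mesenchyme), Aldh1a2 (1 of 4, epicardium) and Cd68 (1 of 5, macrophages) were at an unadjusted p below 0.05. Each was higher in Scx-/-, and 0 of the endothelial, smooth muscle, cardiomyocyte and erythroid genes were called. Over all genes 3.89% met that threshold in either direction. Without overlap and higher in Scx-/- were Lum, Aldh1a2, Cd68, Prrx1 and Dcn (mesenchyme) and Tagln (smooth muscle), against 7.19% of all genes. Myh7 (cardiomyocytes) was lower without overlap, against 2.31% of all genes. Cd68 was at the fill-in value in Scx+/+ replicate 2, and the log2 fold changes of Vcan, Sox9 and Twist1 in the mesenchyme list and of C1qb in the macrophage list were below 0. Scx-/- replicate 3 and Scx+/+ replicate 2 stood apart from the other 4 libraries. They held the pair of highest values for 13.0% and the pair of lowest for 19.5% of the 13827 genes whose mean level reached 1 RPKM. A random order of the libraries would give 6.67% for each, and other pairs of libraries were not counted.

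In wild-type tissue the 10 genes spanned a wide range of levels, with the chaperone far above the enzymes. Serpinh1 had the highest level, with a mean of 120.0 ± 12.4 RPKM (SD, n = 3), and stood above 95.5% of all genes. Loxl2, P4ha1 and Plod2 followed at 26.7 ± 5.58, 26.3 ± 4.54 and 22.9 ± 2.24 RPKM (SD, n = 3), and their ranges overlapped from each to the next. Lox (8.22 ± 0.460 RPKM), Pcolce (6.33 ± 2.002), Plod1 (5.46 ± 1.83), Bmp1 (3.85 ± 0.511) and P4ha2 (3.71 ± 1.09) formed a middle group in which each gene also overlapped the next. Loxl1 was lowest at 1.91 ± 0.0600 RPKM (SD, n = 3), below every P4ha2 value. In Scx-/- tissue the same genes took the first and the last 6 places, and P4ha1, Plod2 and Loxl2, again overlapping, changed order within places 2 to 4. The gaps without overlap were the same in both genotypes: Serpinh1 above the next gene, the trio above Lox, and P4ha2 above Loxl1. The 10 genes together summed to 223 to 271 RPKM in Scx-/- and 208 to 240 RPKM in Scx+/+, and Serpinh1 made up 51.4% to 58.3% of that sum in the 6 libraries.

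**Figure D1:**
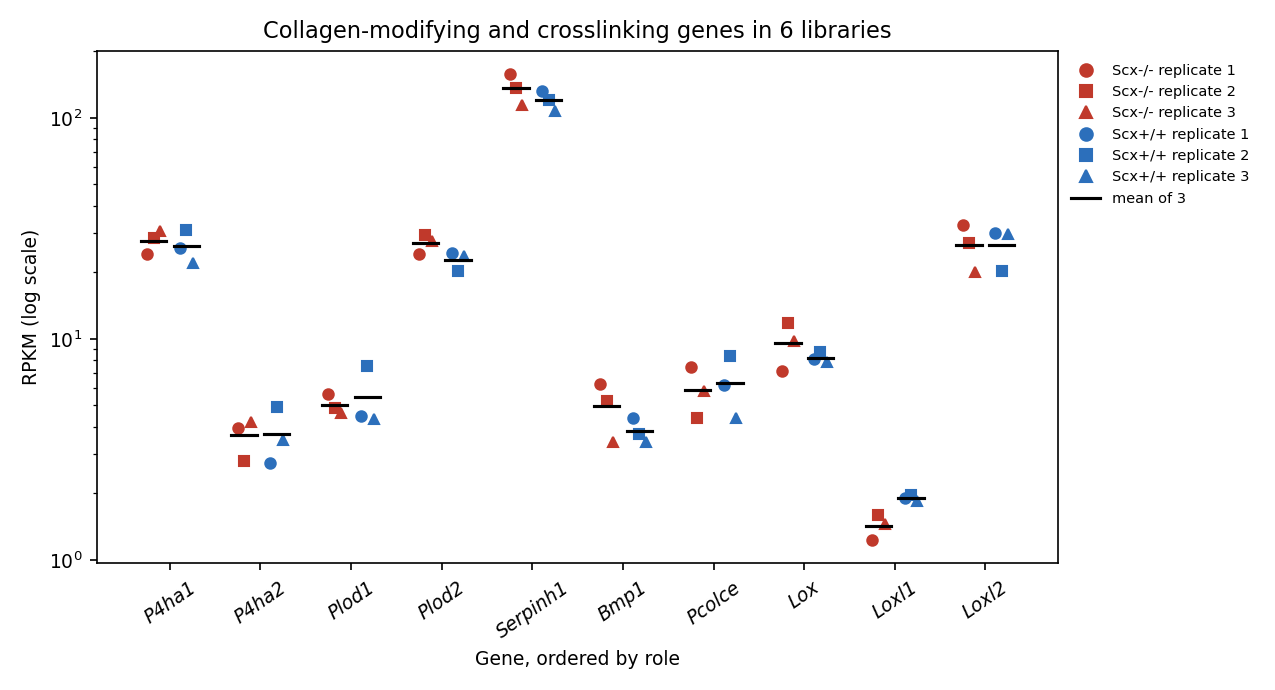
Levels of the 10 genes, ordered by role, as RPKM on a log scale, with 1 symbol for each library (red Scx-/-, blue Scx+/+) and a black line at the mean of each genotype. Serpinh1 lies above all other genes in every library, Loxl1 lies below them, and only for Loxl1 are the 3 Scx-/- values all on 1 side of the 3 Scx+/+ values.

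Comparing genotypes asks whether collagen processing enzymes changed in valves that lack Scx. None of the 10 was called by limma, a linear model on log2(RPKM + 0.1) that pools the spread over genes. Called means an unadjusted p below 0.05, which 3.89% of all 18810 genes met (731 genes), and at an adjusted p below 0.05 limma called 0% of all genes, the members included. The smallest unadjusted p from limma among the 10 was 0.165 for Plod2, and the adjusted p ran from 0.967 to 1.00. The log2 fold change of Scx-/- over Scx+/+ was above 0 for 6 of the 10, with a median of 0.05 against 0.105 over all genes, and 4 of the 10 were above that median. Across the 6 libraries the highest value of a gene was 1.41 times (P4ha1) to 1.92 times (Pcolce) its lowest. Without overlap between genotypes and lower in Scx-/- there was 1 of the 10, Loxl1, against 2.31% of all genes, and without overlap and higher there was 0 of the 10, against 7.19% of all genes. With 3 libraries on each side, 0.1 is the smallest two-sided p that exact permutation can reach.

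**Figure D2:**
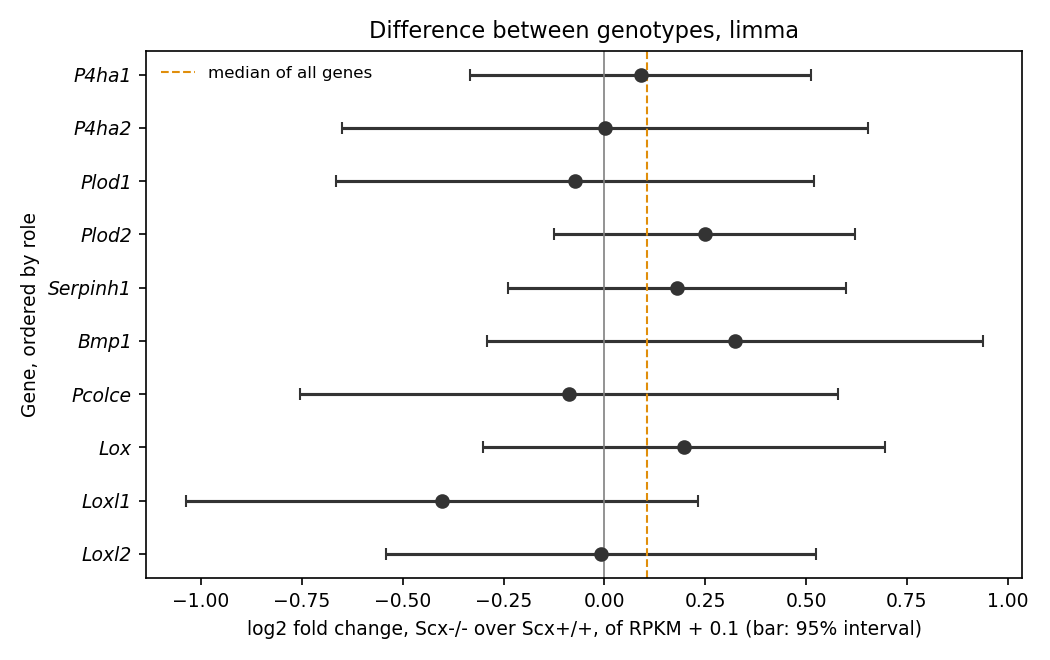
Log2 fold change of Scx-/- over Scx+/+ on the log2(RPKM + 0.1) scale from limma for each of the 10 genes (points), with 95% intervals (bars). Every interval includes 0, and the dashed line marks the median of all genes at 0.105.

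The prolyl 4-hydroxylase subunits showed no difference beyond the spread between libraries. P4ha1 (ENSMUSG00000019916, mm9 chromosome 10 from 58786044 to 58836052, plus strand), a catalytic alpha subunit, was 24.2, 28.6 and 30.8 RPKM in Scx-/- and 25.7, 31.1 and 22.1 RPKM in Scx+/+. The groups overlapped from end to end, with the highest and the lowest library both Scx+/+. Limma put the log2 difference at 0.09 (standard error 0.19, 95% interval -0.33 to 0.51, adjusted p = 0.980). P4ha2 (ENSMUSG00000018906, chromosome 11 from 53913597 to 53945167, plus strand), the alternative alpha subunit, was 3.97, 2.81 and 4.22 RPKM in Scx-/- and 2.74, 4.90 and 3.50 RPKM in Scx+/+, again with both extremes in Scx+/+. Its mean log2 difference was 0.00 (standard error 0.29, 95% interval -0.65 to 0.65). P4ha1 was 6.08 to 10.2 times as abundant as P4ha2 within a library on the RPKM scale, and this ratio averaged 7.85 ± 2.09 in Scx-/- and 7.34 ± 1.76 in Scx+/+ (SD, n = 3, exact permutation test, two-sided, p = 0.7).

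The lysyl hydroxylases differed from each other in how they varied. Plod2 (ENSMUSG00000032374, chromosome 9 from 92437061 to 92503266, plus strand), which hydroxylates lysines of the collagen telopeptides, was 24.3, 29.4 and 27.8 RPKM in Scx-/- and 24.5, 20.3 and 23.7 RPKM in Scx+/+. Scx-/- replicates 2 and 3 lay above all 3 wild-type values, and Scx-/- replicate 1 lay between them. The log2 fold change was 0.25 (standard error 0.16, 95% interval -0.12 to 0.62, adjusted p = 0.967 from limma), or a fold of 1.19 with an interval of 0.918 to 1.54. Plod1 (ENSMUSG00000019055, chromosome 4 from 147283862 to 147310876, minus strand), which acts mainly on the helical part, was 5.62, 4.87 and 4.62 RPKM in Scx-/- and 4.46, 7.57 and 4.35 RPKM in Scx+/+. Scx+/+ replicate 2 alone stood above the other 5 libraries, and the log2 fold change was -0.07 (standard error 0.26, 95% interval -0.66 to 0.52). The ratio of Plod1 to Plod2 was 0.188 ± 0.0375 in Scx-/- and 0.246 ± 0.110 in Scx+/+ (SD, n = 3, exact permutation test, two-sided, p = 0.5).

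Serpinh1 (ENSMUSG00000070436, chromosome 7 from 106493885 to 106501740, minus strand) was 158, 137 and 115 RPKM in Scx-/- and 132, 121 and 107 RPKM in Scx+/+. The genotypes overlapped through Scx-/- replicate 3. Its log2 fold change was 0.18 (standard error 0.19, 95% interval -0.24 to 0.60, adjusted p = 0.967 from limma), from at least 13694 reads in each library. Bmp1 (ENSMUSG00000022098, chromosome 14 from 70874364 to 70920067, minus strand), the procollagen C-proteinase that also activates Lox, was 6.23, 5.23 and 3.41 RPKM in Scx-/- and 4.41, 3.73 and 3.40 RPKM in Scx+/+. Scx-/- replicates 1 and 2 were above every wild-type library and Scx-/- replicate 3 was next to the lowest of all 6. The log2 fold change of Bmp1 was 0.32 (standard error 0.27, 95% interval -0.29 to 0.94, adjusted p = 0.967 from limma). Without Scx-/- replicate 3 Bmp1 was called, at a log2 difference of 0.57 (95% interval 0.02 to 1.12, adjusted p = 0.872 from limma), among 3.54% of all genes called higher in that fit. Pcolce (ENSMUSG00000029718, chromosome 5 from 138046331 to 138055012, minus strand), a glycoprotein that speeds cleavage by Bmp1, was 7.50, 4.37 and 5.78 RPKM in Scx-/- and 6.17, 8.40 and 4.41 RPKM in Scx+/+. The extremes lay in opposite genotypes and the rest overlapped, with a mean log2 difference of -0.09 (standard error 0.29, 95% interval -0.76 to 0.58). Of its exon bases 2.93% are shared with Fbxo24 on the same strand. The ratio of Bmp1 to Pcolce was 0.872 ± 0.305 in Scx-/- and 0.643 ± 0.175 in Scx+/+ (SD, n = 3, exact permutation test, two-sided, p = 0.4).

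Among the lysyl oxidases, Loxl1 alone separated the genotypes by library, with every Scx-/- value below every Scx+/+ value. Loxl1 (ENSMUSG00000032334, chromosome 9 from 58135530 to 58161019, minus strand), known for elastic fibres, was 1.23, 1.59 and 1.46 RPKM in Scx-/- and 1.91, 1.97 and 1.85 RPKM in Scx+/+, from 215 to 423 reads in each library. Limma gave a log2 fold change of -0.40 (standard error 0.28, 95% interval -1.04 to 0.23, unadjusted p = 0.185 and adjusted p = 0.967), and the exact permutation test gave p = 0.1, the smallest it allows. The study's own kind of test judges each gene by its own spread, with no pooling over genes, and Loxl1 was the 1 member called by it, both on RPKM and on log2(RPKM + 0.1). That test called 4.51% of all genes on RPKM and 4.6% on the log2 scale. Leaving out any single library kept the log2 fold change of Loxl1 between -0.48 and -0.31.

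Lox (ENSMUSG00000024529, chromosome 18 from 52675723 to 52689521, minus strand), the founding lysyl oxidase of collagen and elastin, was 7.17, 11.9 and 9.83 RPKM in Scx-/- and 8.09, 8.73 and 7.83 RPKM in Scx+/+. Scx-/- held both the lowest and the highest value, and the log2 fold change was 0.20 (standard error 0.22, 95% interval -0.30 to 0.69). Loxl2 (ENSMUSG00000034205, chromosome 14 from 70008978 to 70095640, plus strand), which acts on basement membrane collagen IV as well, was 32.7, 27.3 and 20.1 RPKM in Scx-/- and 30.002, 20.3 and 29.9 RPKM in Scx+/+. Its lowest values came from 1 library of each genotype, and the log2 fold change was -0.01 (standard error 0.24, 95% interval -0.54 to 0.53). Loxl2 was 2.05 to 4.56 times as abundant as Lox within a library, with a mean ratio of 2.97 ± 1.38 in Scx-/- and 3.29 ± 0.832 in Scx+/+ (SD, n = 3, exact permutation test, two-sided, p = 0.8).

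Set against Lox within each library, Loxl1 differed between genotypes by more than on its own. This measure does not depend on the scaling of a library. The added part came from Lox, the denominator, whose uncalled log2 fold change was 0.20 (0.03 without Scx-/- replicate 2). The ratio of Loxl1 to Lox was 0.172, 0.134 and 0.149 in Scx-/- and 0.236, 0.226 and 0.236 in Scx+/+. Every Scx-/- ratio was below every Scx+/+ ratio, and the 3 wild-type ratios lay close together. The log2 ratio differed by -0.63, a fold of 0.648, and by -0.72 to -0.54 on leaving out single libraries (exact permutation test, two-sided, p = 0.1, the smallest possible). Of all genes set against Lox in the same way, 2.71% were lower in Scx-/- without overlap. This was 1 of 5 ratios compared, and the groups overlapped in the other 4.

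Relative to the transcripts of their substrate, taken as the sum of Col1a1, Col1a2 and Col3a1 RPKM, 8 of the 10 genes had a mean log2 ratio that was above that of wild type, and so did 71.7% of all genes. The log2 difference of the collagen sum itself was -0.08, which raises every gene on this measure by as much. Over all genes the median log2 difference on this measure was 0.19. The sum was 144, 184 and 125 RPKM in Scx-/- and 162, 144 and 168 RPKM in Scx+/+, and most of it was Col3a1. Col1a1 was 7.34, 8.09 and 7.70 RPKM in Scx-/- and 9.91, 8.36 and 15.8 RPKM in Scx+/+, without overlap, and limma gave it a log2 difference of -0.50 (standard error 0.25, adjusted p = 0.967). Col1a2 and Col3a1 overlapped, with log2 fold changes of -0.16 and -0.03. Plod2 amounted to 16.9%, 16.0% and 22.2% of the collagen sum in Scx-/- and 15.2%, 14.1% and 14.1% in Scx+/+. The genotypes did not overlap in this share, and 7.09% of all genes were higher in Scx-/- without overlap on the same measure. The log2 difference was 0.33 (exact permutation test, two-sided, p = 0.1, the smallest possible) and lay between 0.18 and 0.42 on leaving out single libraries, the lowest of these without Scx-/- replicate 3. The shares of the other 9 genes overlapped between genotypes. Serpinh1 RPKM came to 91.9% ± 17.7 of the collagen sum in Scx-/- and 76.4% ± 11.1 in Scx+/+ (SD, n = 3, exact permutation test, two-sided, p = 0.4), and Bmp1 to 3.29% ± 0.895 and 2.45% ± 0.371 (p = 0.2 by the same exact test). The 8 valve mesenchyme genes summed to 478, 643 and 674 RPKM in Scx-/- and 412, 493 and 374 RPKM in Scx+/+, a sum made up mostly of Postn, Dcn and Lum. Of the 8 genes, 5 had a log2 fold change above 0 and 3 (Vcan, Sox9 and Twist1) below 0, and their part in the Plod2 and Loxl1 values was not tested.

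**Figure D3:**
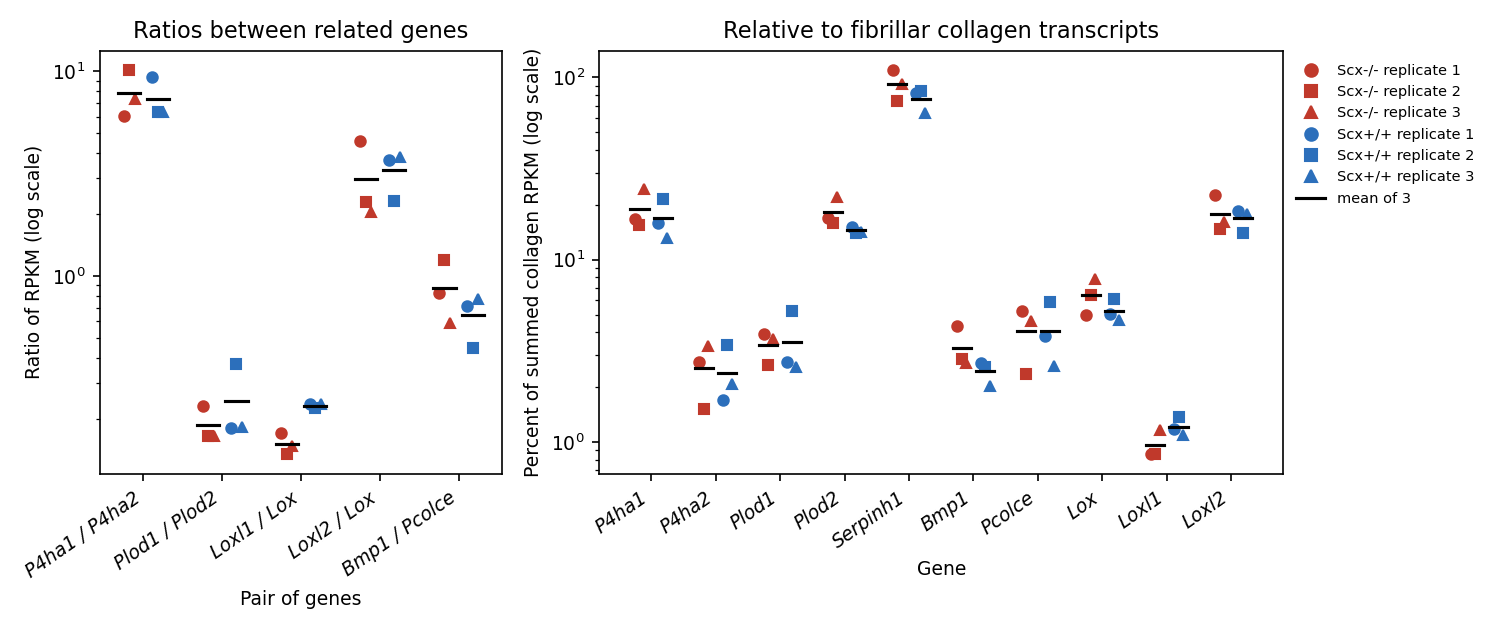
Left, ratio of RPKM between related genes within each library on a log scale; right, RPKM of each gene as a percentage of the sum of Col1a1, Col1a2 and Col3a1 RPKM on a log scale. Symbols are libraries (red Scx-/-, blue Scx+/+) and black lines are means of 3. The genotypes separate for Loxl1 to Lox (0.134 to 0.172 against 0.226 to 0.236) and for Plod2 to collagen, and overlap elsewhere.

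Across the 6 libraries the genes fell into more than 1 pattern, none of them that of the genotypes except for Loxl1. Scx+/+ replicate 2 held the highest value of 5 of the 10 genes (P4ha1, P4ha2, Plod1, Pcolce and Loxl1), Scx-/- replicate 1 that of 3 (Serpinh1, Bmp1 and Loxl2) and Scx-/- replicate 2 that of Lox and Plod2. Scx+/+ replicate 3 held the lowest value of 4. P4ha1 and P4ha2 were both highest in Scx-/- replicate 3 and Scx+/+ replicate 2, the libraries that stood apart, and Loxl2 was lowest in the same pair. P4ha1, P4ha2, Plod2, Lox and Loxl2 are known targets of hypoxia-inducible factors, so a list of 14 other hypoxia-responsive genes was read beside them. Of these 14, 9 were also highest in that pair of libraries, against the 13.0% of all genes given above, 1 was lowest, and 0 were called between genotypes (median log2 fold change 0.06). Egln3, a prolyl hydroxylase of hypoxia-inducible factors, was 21.9 RPKM in Scx-/- replicate 3 and 18.7 RPKM in Scx+/+ replicate 2. Its level in the other 4 libraries was 7.06 to 7.24 RPKM, and it was chosen after its values were seen. The gene that was lowest in the pair was Slc2a1, at 19.7 and 17.6 RPKM against 23.4 to 34.3 RPKM elsewhere. Vegfa, Car9, Egln1 and Ndrg1 were neither highest nor lowest there. Plod2 and Lox had another order, both with their highest value in Scx-/- replicate 2, and Plod2 was lowest in Scx+/+ replicate 2. The cardiomyocyte sum was also highest in that pair, at 23826 and 26299 RPKM against 14439 to 19306 RPKM in the other 4 libraries. Most of that sum was Myl2 and Tnnt2, and 4 of the 8 genes (Myh6, Tnnt2, Tnni3 and Myl2) were highest in the pair while Myh7, Actn2, Myl7 and Nppa were not. Lowest in the same pair were 3 of 7 endothelial, 2 of 4 epicardial and 3 of 8 mesenchymal genes, against the 19.5% given above. The endothelial gene Emcn was highest there. Whether hypoxia or tissue composition had a part in these values was not tested.

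**Figure D4:**
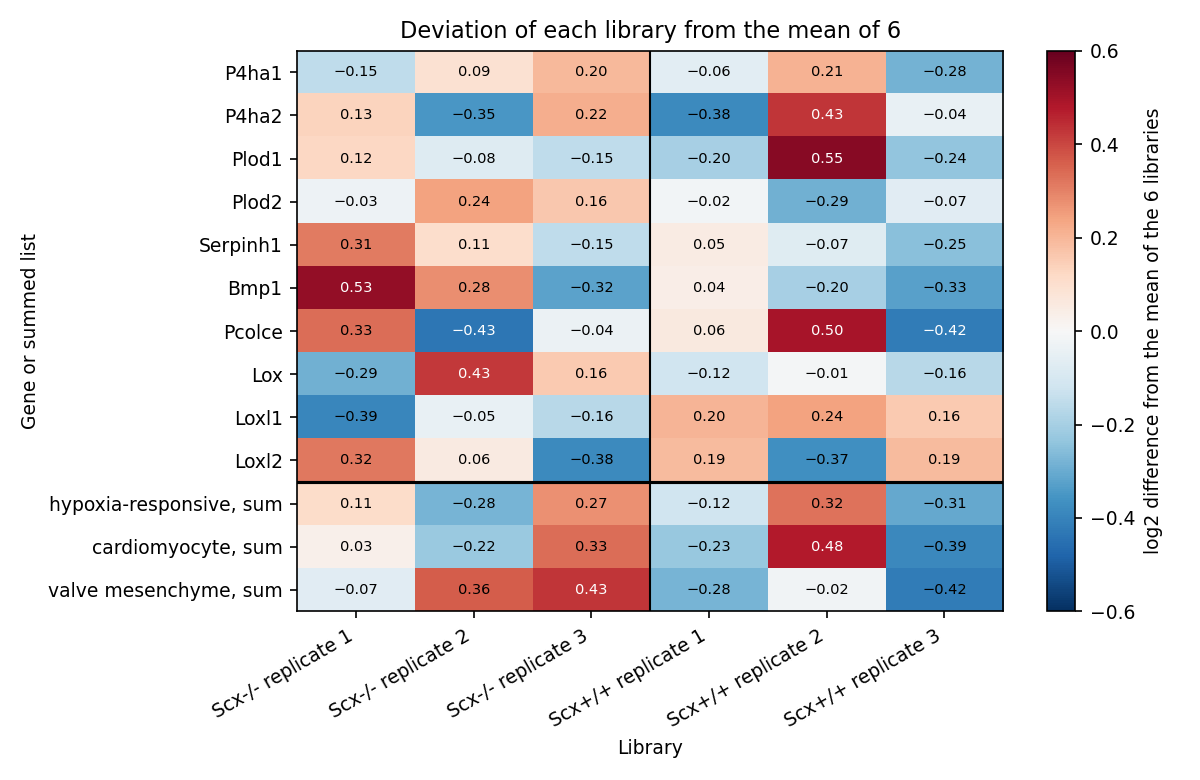
Log2 difference of each library (columns) from the mean of the 6 libraries for the 10 genes and, under the line, for the summed RPKM of 3 gene lists (rows), in red where higher and in blue where lower. P4ha1 and P4ha2 share their highest libraries, Scx-/- replicate 3 and Scx+/+ replicate 2, with the summed hypoxia-responsive and cardiomyocyte genes, and Loxl2 has its lowest values there.

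The wider machinery of collagen maturation held no called gene either. A list of 28 further genes (other hydroxylases and oxidases, prolyl isomerases, glycosyltransferases, export factors and N-propeptidases) was read in the same fit, and 23 of them were in the table. Of the 23, 0 were called by limma in either direction, 0 were without overlap, 11 had a log2 fold change above 0, and the median was -0.02 against 0.105 over all genes. Ppib (cyclophilin B), which isomerizes prolines and works in a complex with Crtap and the prolyl 3-hydroxylase Lepre1, was the most abundant, at 417, 408 and 339 RPKM in Scx-/- and 293, 396 and 277 RPKM in Scx+/+ (log2 fold change 0.28, standard error 0.22). P4hb, the protein disulfide isomerase that is the beta subunit of prolyl 4-hydroxylase, was 174, 174 and 144 RPKM in Scx-/- and 137, 150 and 125 RPKM in Scx+/+ (log2 fold change 0.26, standard error 0.17). Scx-/- replicates 1 and 2 were above all wild-type libraries for both genes. Tgm2, a transglutaminase that crosslinks matrix proteins by another reaction, was 48.4, 37.9 and 43.5 RPKM in Scx-/- and 50.5, 52.4 and 40.4 RPKM in Scx+/+, with overlap. Of the 23 genes, 10 had their lowest values in Scx-/- replicate 3 and Scx+/+ replicate 2, among them Crtap, Lepre1 and Fkbp10, against 19.5% of all genes, and 1 had its highest.

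When both of these libraries were left out, a setting chosen after seeing the data, P4hb, Ppib and the prolyl 3-hydroxylase Leprel2 were called higher in Scx-/-, 3 of the 23 genes against 6.06% of all genes called higher. Their log2 fold changes were 0.41, 0.53 and 0.54, and the adjusted p from limma was 0.578 for each. Without Scx+/+ replicate 2 alone, Ppib was called (log2 fold change 0.44), among 5.75% of all genes called higher, and without Scx-/- replicate 3 alone, Leprel2 was called (0.73). Of the 10 members 0 were called with both libraries left out, and Bmp1 then had a log2 fold change of 0.55 (95% interval -0.08 to 1.17, adjusted p = 0.578 from limma), close to the 0.57 at which it was called without Scx-/- replicate 3 alone.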

How the data were processed

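Atrioventricular canal regions of 3 Scx-/- and 3 Scx+/+ embryos were sequenced, and groups were taken from the labels. The authors aligned reads with TopHat 1.4.1 (per the submitters' processing notes) to mm9, counted them over Ensembl exons with easyRNASeq and deposited RPKM, normalized for exon length and depth, after replacing low values with 0.0949 RPKM. Strand of the counting was not given in the sources used here. Symbols came from GENCODE for mm9, which matched 18695 of 18810 identifiers. Library depth was solved from RPKM and exon length, and 98.45% to 98.57% of values under 1000 reads were then within 0.1 of whole reads. Depth served as description, and no count test was run.

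Genotypes were compared by limma (version 3.58.1, R version 4.3.3), fitted to log2(RPKM + 0.1) with its trend option, and p-values were adjusted after Benjamini and Hochberg over 18810 genes. A fold change on this scale understates that of low genes. Ratios were tested by exact permutation, two-sided. The p-values measure the spread between embryos of a genotype. Python 3.11.15 did the rest. The limma and one-way ANOVA fits were tested on simulated data. The text names the 10 members, Scx, the 3 collagens of the ratio, genes of the wider list that were called, did not overlap or were among the 3 most abundant, and called genes of the hypoxia and marker lists. Other names are examples chosen after values were seen. Members and lists were chosen with earlier results of these data known. Alternatives were pseudocounts of 0.01 and 1, a mean of at least 1 RPKM, no trend, one-way ANOVA, 2 scalings, the replicate block and each library left out. Of the wider list, Mia3, Adamts14, Tll2, Pcolce2 and Loxl4 were not analysed here.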

Additional observations from a re-analysis of the deposited data

How the results depend on the processing

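The log2 fold changes of Lox, Loxl1, Plod2, Bmp1 and Serpinh1 kept their sign under all 16 alternatives. Their sizes moved under the 2 scalings, quantile normalization and the median ratio set to 0. Plod2 went from 0.25 to 0.11 and 0.14, Serpinh1 from 0.18 to 0.07 and 0.07, and Lox from 0.20 to 0.10 and 0.09. Bmp1 went from 0.32 to 0.26 and 0.21, and Loxl1 from -0.40 to -0.455 and -0.51. Over the 10 genes, 138 of the 160 values kept both sign and side of the threshold. Of the members, 1 (Loxl1) was called by one-way ANOVA on log2(RPKM + 0.1) and 1 (Loxl1) on RPKM, against 0 in limma, and 0 to 1 were called on leaving out single libraries, the 1 being Bmp1 without Scx-/- replicate 3. Of the wider list 0 to 1 were called with a library left out, and 3 with both libraries that stood apart left out. The count over all genes was 731, 539 to 1549 with each library left out (1549 without Scx+/+ replicate 2), and 1587 without both libraries that stood apart. The cause was not tested.

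The sign of small differences turned. P4ha1 was -0.033 after quantile normalization and -0.020 with the median ratio set to 0. P4ha2 was -0.06 and -0.11 under these scalings, -0.018 as a ratio of mean RPKM and -0.0020 with a pseudocount of 1. Plod1 was 0.24 and Pcolce 0.13 without both libraries that stood apart. With each library left out, log2 fold changes ran from -0.19 to 0.18 for Loxl2, -0.21 to 0.18 for Plod1, -0.030 to 0.22 for P4ha1, -0.19 to 0.21 for P4ha2 and -0.32 to 0.14 for Pcolce. Log2 ratios ran from -0.11 to 0.28 for P4ha1 to P4ha2, -0.50 to 0.021 for Plod1 to Plod2 and -0.56 to 0.015 for Loxl2 to Lox. Relative to collagen they ran from -0.12 to 0.19 for Loxl2, -0.18 to 0.33 for Plod1, -0.033 to 0.36 for P4ha1, -0.16 to 0.41 for P4ha2 and -0.29 to 0.34 for Pcolce. The scalings moved the share of calls over all genes that were higher in Scx-/- from 72.6% to 49.9% (quantile) and 43.5% (median).

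Deviations of same-numbered libraries from the mean of their genotype correlated at 0.092, -0.22 and -0.188. The highest correlation between genotypes was 0.32, for Scx-/- replicate 3 and Scx+/+ replicate 2. As litter was not given, these values cannot show whether same-numbered embryos were paired. With the replicate block, 573 genes and 0 of the 10 members were called. With 3 embryos in each group, the 95% intervals of the 10 genes reached folds from 0.487 (Loxl1) to 1.92 (Bmp1), and differences within a gene's own interval cannot be told from 0 or from each other at this size.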
